A study of Mus musculus with 8 samples.

Results

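Elastin, the fibulins and the lysyl oxidases were followed in the tips of secondary alveolar septa and in whole lung of C57/Bl6 mice at postnatal day 6, an age at which new septa divide the air spaces. The rule took every probe set whose single annotated gene symbol is Eln, Fbln1, Fbln2, Fbln5, Lox or Loxl1. It found 10 probe sets of 5 genes, out of 12422 probe sets and 8251 named genes on the array. Fbln5 had no probe set with its symbol and was not analysed here. Under a microscope, a laser was used to collect 10000 tips out of frozen lung sections of many mice from several litters; the labels leave unclear whether that number is for each experiment or for both. The lung RNA came from pooled whole lung tissue, which also holds septal tips. The work was carried out as experiment 1 and again, with other litters, as experiment 2, and each RNA was hybridised to 2 arrays. There were thus 2 RNA samples and 4 arrays for tips, and as many for lung. All mice were untreated and of the same strain as far as the labels say.

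Elastic fibres give the alveolar wall its recoil, and elastin is laid down at the tips of septa as they grow. Cells secrete tropoelastin, the soluble product of Eln, which gathers on a scaffold of microfibrils. Fibulins, secreted glycoproteins with calcium-binding EGF-like repeats, help to place tropoelastin on that scaffold. Lysyl oxidases, which need copper, then oxidise lysines so that the chains become cross-linked.

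Of the 10 probe sets, 9 had a higher mean in tips and 1 a lower mean. The 8 bright enough to be tested included 7 with a higher mean, where 62.1% of all probe sets tested had one. One passed the test across all probe sets: Fbln2 rose in tips, with a fold of 2.99 on the scale of log2(signal + 150.09). The brightest Eln probe set averaged 1.65-fold higher in tips without passing, and its level differed more between the experiments than between tissues. The probe sets of Fbln1 leaned the same way without passing. The 2 probe sets of Lox went in opposite directions, and for Loxl1 the groups overlapped broadly. Each difference below is tips minus lung on the log2 scale ± its standard error, from 2 RNA samples of each tissue, and adjusted p is Benjamini-Hochberg over the 7453 probe sets that limma tested. An exact permutation test of 2 against 2 RNA samples cannot give a two-sided p below 0.333, so it made no calls. In tissue RNA, more cells of a type and more RNA per cell cannot be told apart, here and below.

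Eln was read by a very bright and a dim probe set. The bright one, 92836_at, gave signals of 151392 and 147616 on the tip arrays of experiment 1 and of 55710 and 47010 on those of experiment 2. The lung arrays gave 68106 and 77961 in experiment 1 and 36072 and 41222 in experiment 2. Within each experiment both tip arrays lay above both lung arrays, whereas over both experiments the groups overlapped, because the tips of experiment 2 lay below the lung of experiment 1. The mean signal was 100432 ± 69398 in tips and 55840 ± 24315 in lung (SD, n = 2). The log2 difference was 0.72 ± 0.58 (95% interval -0.58 to 2.02, limma adjusted p = 0.356), and it was 1.04 in experiment 1 and 0.41 in experiment 2. The value depended on the tip RNA used: without that of experiment 1 the difference was -0.05, and without that of experiment 2 it was 1.49. Without the lung RNA of experiment 1 it was 1.18, and without that of experiment 2 it was 0.26.

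Arrays of the same RNA agreed closely for this probe set, the brighter exceeding the dimmer by 1.03-fold and 1.19-fold in tips and by 1.14-fold in both lung RNAs. The experiments differed far more. The signal of experiment 1 was 2.91 times that of experiment 2 in tips and 1.89 times in lung. A higher Eln signal thus came with experiment 1 in both tissues. The haemoglobin gene Hba-a1, a marker of red blood cells, had the same order, with 68189 and 12721 in tips and 23266 and 5522 in lung for experiments 1 and 2. Of all named genes tested, the pattern of Hba-a1 over the 8 arrays was the most like that of Eln, at a Pearson r of 0.987, followed by Dnal4, Gsto1, Colgalt1 and Sin3a at 0.970 to 0.962. These points are arrays of only 4 RNA samples, and the r is a description. Whether blood content or litter had a part in the Eln values was not tested.

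The dim Eln probe set, 92207_at, gave 1687 and 1401 on the tip arrays of experiment 1 and 207 and 726 on those of experiment 2. The lung arrays gave 253, 387, 299 and 362. Tips were well above lung in experiment 1, and in experiment 2 one tip array lay below every lung array and the other above them. This probe set lay above background, the 95th percentile of bacterial and yeast control probe sets on each array, on 2 of 4 tip arrays and 1 of 4 lung arrays. The log2 difference was 1.04 ± 0.58 (limma adjusted p = 0.196), with tips higher in experiment 1 and a difference of 0.22 in experiment 2. In experiment 2 both tip arrays and lung array 1 were under background, so the 0.22 rests mostly on dim values. Both lung arrays of experiment 1 were under background, and with them set at their background the tip signal was at least 3.79-fold higher there. Without the tip RNA of experiment 2 the log2 difference was 1.84. Without that of experiment 1 it was 0.24, where the tip values left were under background.

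**Figure D1:**
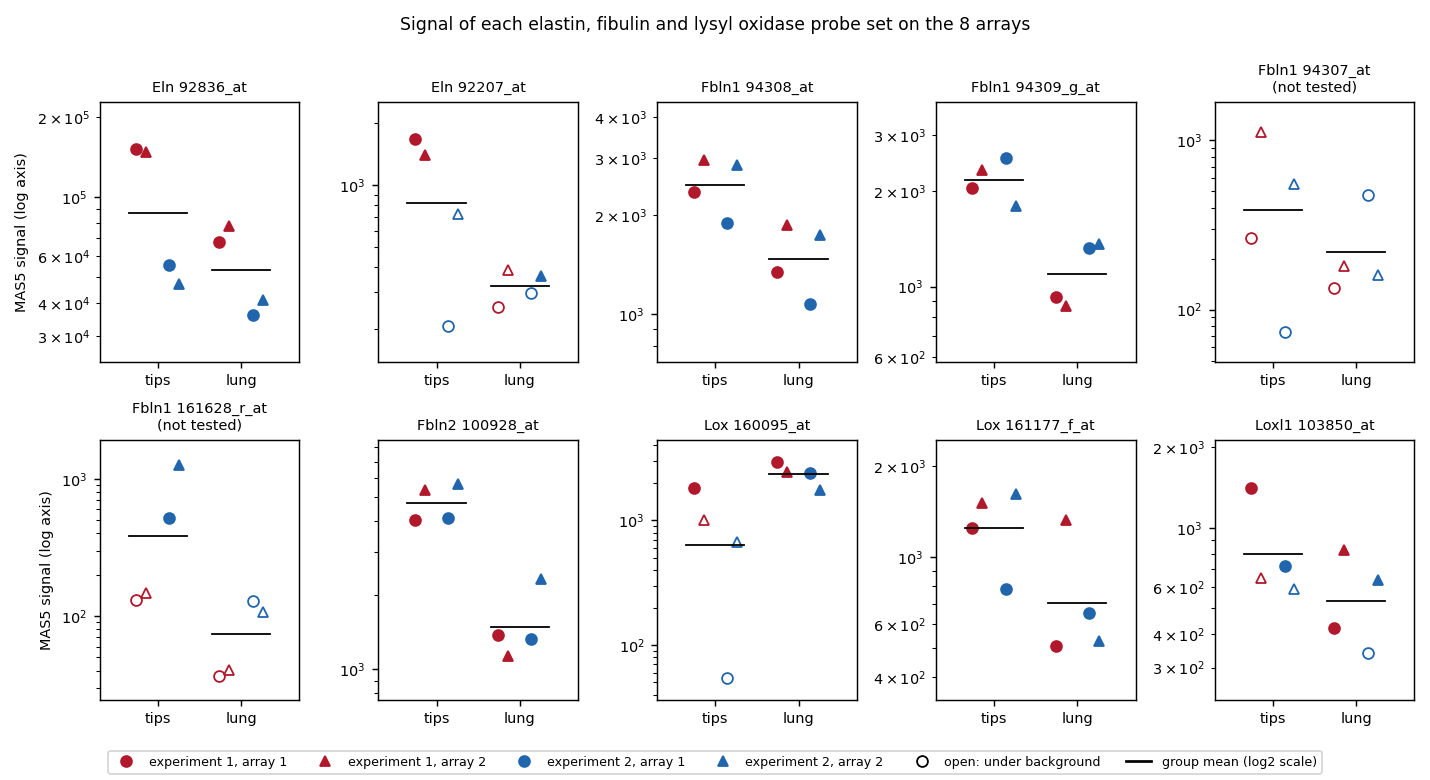
Signal (log axis) of the 10 probe sets on the 4 tip arrays, left, and the 4 lung arrays, right, with colour for the experiment, shape for the array, open symbols for values under background and a line at the group mean on the log2 scale. For Fbln2 all tip arrays, 4063 to 5682, sit above all lung arrays, 1129 to 2335, while the bright Eln probe set separates by experiment in both tissues.

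Fbln2 encodes fibulin-2, a glycoprotein of elastic fibres, vessel walls and basement membranes. Its only probe set, 100928_at, gave 4063, 5343, 4122 and 5682 on the tip arrays. The lung arrays gave 1385, 1129, 1327 and 2335. The groups did not overlap, and the lowest tip array was well above the highest lung array. The mean signal was 4803 ± 141 in tips and 1544 ± 406 in lung (SD, n = 2), and all 8 arrays were above background. Fbln2 rose by 1.58 ± 0.32 on the log2 scale (95% interval 0.86 to 2.30, limma adjusted p = 0.00817), with 1.78 in experiment 1 and 1.38 in experiment 2. The call was lost without the lung RNA of experiment 1, where the difference was 1.35 (adjusted p = 0.101), and with centring on the median, where it was 0.96 (adjusted p = 0.0705).

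Relative to the median of all probe sets tested, which lay at 0.35, Fbln2 differed by 1.23. The genes most like Fbln2 over the 8 arrays were Stx5a, Poldip2, Emd, Tmem234 and Cops7b, at a Pearson r of 0.995 to 0.981. As for Eln, these are arrays of 4 RNA samples, and any gene that separates tips from lung will share much of this pattern. All 5 had a positive tip-to-lung difference, between 0.92 and 1.58.

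The promoter of Fbln2 is shown because this is the gene that passed the test, although the arrays measure transcripts and not promoter activity. The window, from RefSeq on GRCm38.p6, is chr6:91212514-91212813 on the plus strand, from 250 bases before the annotated start to 50 bases after it. Capitals mark matches to the GC box letters GGGCGG on either strand.

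Fbln2: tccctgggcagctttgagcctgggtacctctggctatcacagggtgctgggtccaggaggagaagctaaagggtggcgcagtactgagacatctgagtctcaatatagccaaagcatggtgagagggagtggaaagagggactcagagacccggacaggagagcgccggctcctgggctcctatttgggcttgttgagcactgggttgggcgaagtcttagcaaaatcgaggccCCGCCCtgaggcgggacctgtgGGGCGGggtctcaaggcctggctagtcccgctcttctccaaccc

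The 2 GC box matches begin at positions -16 and 7 relative to the start and do not overlap. Of 32851 promoter windows of the same length, 35.7% held this motif. The TATA box letters TATAAA (in 13.6% of windows) and the AP-1 letters TGANTCA (in 7.81%), searched on both strands, were not in this window.

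Fbln1 encodes fibulin-1, which binds fibronectin and is found in the elastin core of elastic fibres. It had 4 probe sets, of which 94308_at and 94309_g_at were above background on every array. On 94308_at the tip arrays gave 2358, 2952, 1890 and 2855, and the lung arrays 1340, 1868, 1071 and 1746. All tip arrays lay above all lung arrays, the lowest tip value only just above the highest lung value. The log2 difference was 0.69 ± 0.32 (95% interval -0.03 to 1.42, limma adjusted p = 0.128), with 0.69 in experiment 1 and 0.70 in experiment 2.

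On 94309_g_at the tip arrays gave 2036, 2334, 2529 and 1798, and the lung arrays 924, 870, 1319 and 1363. Again the groups did not overlap. The log2 difference was 0.89 ± 0.35 (95% interval 0.09 to 1.68, limma adjusted p = 0.0856), with 1.15 in experiment 1 and 0.62 in experiment 2. By the names of the probe sets, the probes of 94309_g_at can be shared with other transcripts, and since the annotation names the same source sequence for both, they are not independent readings of Fbln1. Neither passed, and with centring on the median the differences were 0.08 and 0.29.

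The other Fbln1 probe sets were too dim to be tested. The 94307_at signals were 265, 1115, 73.9 and 554 in tips and 134, 182, 475 and 160 in lung, all under the background of their arrays. The 161628_r_at signals were 131, 147, 520 and 1265 in tips and 36.9, 40.3, 128 and 107 in lung, above background only on the tip arrays of experiment 2. Every tip value of 161628_r_at exceeded every lung value, the lowest tip array by little. Its mean difference was 1.24, and for 94307_at it was 0.54, with 1.24 in experiment 1 and -0.15 in experiment 2. No fold over both experiments is given for either, since their mean log2 signals in tips lay at -0.32 for 94307_at and -0.30 for 161628_r_at relative to the mean log2 background of the lung arrays, a lung signal above it being used in its place.

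Lox encodes lysyl oxidase, which cross-links collagen as well as elastin. On 160095_at the tip arrays gave 1809 and 1006 in experiment 1 and 54.5 and 678 in experiment 2. The lung arrays gave 2924, 2431, 2425 and 1754. Within each experiment both tip arrays lay below both lung arrays. Over both experiments the groups overlapped only in that the highest tip array slightly exceeded the lowest lung array. The lung signals were above background on every array, and the tip signals on 1 of 4. Both tip arrays of experiment 2 were under background, so that their values only bound the level there.

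The log2 difference of 160095_at was -1.67 ± 0.57 (95% interval -2.94 to -0.39, limma adjusted p = 0.0542), just outside the threshold. It was -0.90 in experiment 1, and in experiment 2 the tip signal was at least 3.32-fold lower, with the tip arrays set at their background. With the experiment as a replicate block the adjusted p was 0.00839. Without the tip RNA of experiment 1 the difference was -2.60 (adjusted p = 0.000313), which rests on the tip values under background, and without that of experiment 2 it was -0.73 (adjusted p = 0.0951). Without the lung RNA of experiment 1 the difference was -1.49, and without that of experiment 2 it was -1.84. Leaving out the tip array with the signal of 54.5 gave -1.16 (adjusted p = 0.0636).

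The other Lox probe set, 161177_f_at, went the other way. Its tip arrays gave 1247, 1511, 786 and 1616, and its lung arrays 506, 1329, 653 and 529, all above background. The groups overlapped through array 2 of the lung RNA of experiment 1. The log2 difference was 0.71 ± 0.39 (95% interval -0.17 to 1.60, limma adjusted p = 0.187). Both tip arrays lay above both lung arrays in experiment 2, and in experiment 1 lung array 2 lay between the 2 tip arrays. The letter f in the name of this probe set marks probes that related transcripts can share, and the annotation names no source sequence for it, so the direction of Lox rests on which probe set is read. The difference between the 2 probe sets was not tested.

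Loxl1 encodes a lysyl oxidase relative that, in mice, is needed to maintain elastic fibres. Its probe set 103850_at gave 1415, 649, 718 and 589 in tips and 421, 826, 341 and 640 in lung. The groups overlapped broadly. With arrays matched by number, the difference was 1.45 and -0.29 in experiment 1 and 0.82 and -0.10 in experiment 2. The numbers only label repeats of an RNA, and matched the other way tips were higher in every pair. The log2 difference was 0.47 ± 0.44 (95% interval -0.51 to 1.46, limma adjusted p = 0.424), and it fell below 0 with quantile normalization, centring on the median and cyclic loess. Signals were above background on 2 of 4 tip arrays and 3 of 4 lung arrays.

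**Figure D2:**
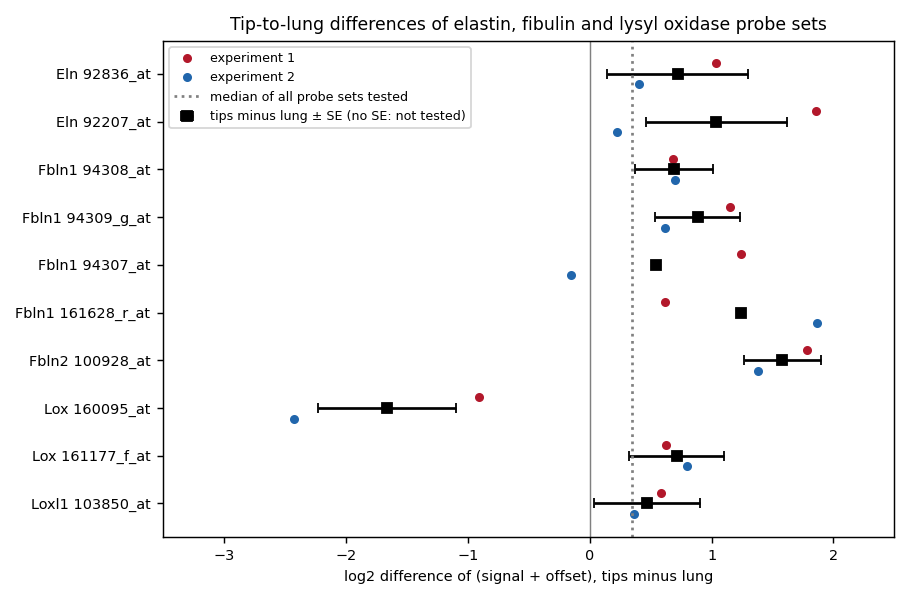
Log2 difference of tips minus lung for the 10 probe sets, with squares and bars for the value and its standard error (no bar where a probe set was not tested), coloured points for each experiment and a dotted line at the median of all probe sets tested, 0.35. Fbln2 lies at 1.58 with both experiments close by, the Eln points of experiment 1 lie to the right of those of experiment 2, and Lox 160095_at lies at -1.67. The points of Lox 160095_at, Eln 92207_at, Loxl1 and the untested Fbln1 probe sets rest in part or wholly on values under background in both experiments.

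Of the 8 probe sets tested, 1 was called higher in tips (12.5%) and 0 lower. Over all 7453 probe sets tested 14.5% were called higher and 13.7% lower, so that the members' share is near that of the array as a whole. That background depends on the scaling: 1084 probe sets were called higher and 1022 lower as reported, 608 and 1020 with quantile normalization, 806 and 1156 with cyclic loess, and 252 and 1603 with centring on the median, where the median difference of all was -0.23. At an unadjusted p under 0.05 limma gave 3 (37.5%), Fbln2, Lox 160095_at and Fbln1 94309_g_at, against 43.6% of all probe sets tested. All 4 tip arrays lay above all 4 lung arrays for 3 of the 8 (37.5%), against 24.1% of all probe sets tested, and below them for 0, against 18.0%. With arrays matched by number within an experiment, tips were higher in all 4 pairs for 5 of the 8, against 34.2% of all. They were lower in all 4 for 1, against 22.1%. The array numbers only label repeats of an RNA, so this matching is arbitrary. Fbln1 94308_at and 94309_g_at, which share a source sequence, are both among the 3 without overlap and the 5 higher in all 4 pairs. The median difference of the 8 was 0.72, beside 0.35 over all probe sets tested.

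The other genes of elastic fibres were taken as lists, each gene read by its brightest probe set. Of 49 listed genes 34 were on the array and 26 were tested. Of these, 2 rose in tips and 3 fell, where 14.6% of all 5642 genes were called higher and 15.1% lower. Among 7 microfibril genes and their binders 2 rose. Ltbp2, a latent TGF-beta binding protein of elastic fibres, had 4024 and 2088 in the tip RNAs against 507 and 1095 in the lung RNAs, a log2 difference of 1.76 ± 0.45 (limma adjusted p = 0.0209). Mfap4, a microfibril-associated glycoprotein, had 27512 and 10587 in the tip RNAs against 5597 and 5990 in the lung RNAs, a difference of 1.54 ± 0.43 (limma adjusted p = 0.0285), but -0.06 at another probe set. Like Eln, both showed the larger difference in experiment 1.

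The 3 genes that fell were an elastin-degrading protease pair and a copper transporter. Ctss, a lysosomal protease that can cleave elastin, had 4355 and 3726 in the tip RNAs against 40343 and 29040 in the lung RNAs and fell by 3.05 ± 0.31 (limma adjusted p = 0.00095). Ctsl, another cathepsin, had 1400 and 1718 in the tip RNAs against 9943 and 10099 in the lung RNAs and fell by 2.60 ± 0.29 (limma adjusted p = 0.00111). Of the 10 proteases and inhibitors tested these were the only 2 called. Ptprc, the pan-leukocyte surface gene CD45, fell with them, with 332 and 531 in the tip RNAs against 2154 and 1549 in the lung RNAs, by 1.95 on the log2 scale (limma adjusted p = 0.0093). Ptprc lay above background on 1 of 4 tip arrays and 4 of 4 lung arrays, so its tip values mostly only bound the level. It was the only 1 of 4 tested blood and myeloid markers called, and Lyz2 and Cd68 of macrophages gave 0.60 and 0.72 (adjusted p = 0.16 and 0.279). The summed signal of those 4 was 29334 to 91514 on tip arrays and 20812 to 38682 on lung arrays. Most of it came from Lyz2 and from Hba-a1 of red blood cells, which gave 1.37 (limma adjusted p = 0.215). The sum therefore says little about Ptprc, and the part of these markers in the protease values was not tested. Slc31a1, which takes up the copper that lysyl oxidases need, had 4308 and 11626 in the tip RNAs against 42736 and 60171 in the lung RNAs, a difference of -2.82 ± 0.46 (limma adjusted p = 0.00381), with -0.68 at another probe set (adjusted p = 0.143). It was the only 1 of 8 regulators called, and Atp7a, the copper pump that supplies secreted enzymes, gave 0.13 ± 0.42 (limma adjusted p = 0.838). Of the further fibulins and cross-linking enzymes Tgm2 alone was tested, at 0.70 ± 0.32 (limma adjusted p = 0.128).

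**Figure D3:**
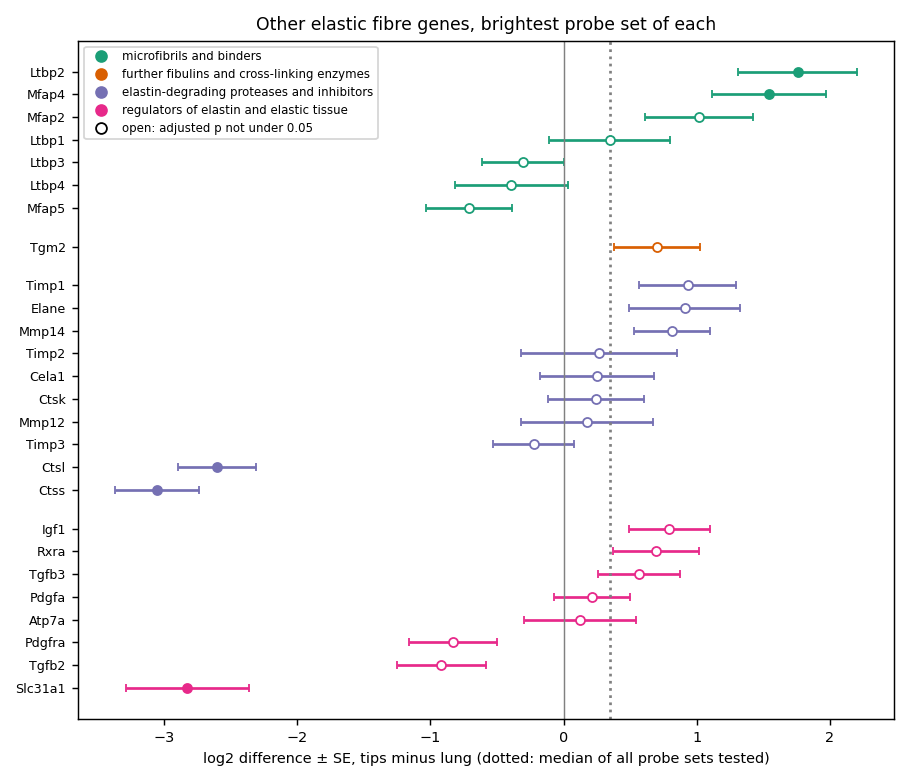
Log2 difference of tips minus lung with its standard error for the 26 other elastic fibre genes tested, grouped by role, with filled points past the threshold and a dotted line at the median of all probe sets tested. Ltbp2 and Mfap4 are filled at the top right at 1.76 and 1.54, and Ctss, Slc31a1 and Ctsl are filled at the left at -3.05, -2.82 and -2.60.

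Features of the arrays and of the tissue moved with the comparison. The background ranged from 487 to 1244 on tip arrays and from 314 to 568 on lung arrays, and arrays of the same RNA differed with an SD of 0.99 and 0.72 for the tip RNAs and of 0.58 and 0.53 for the lung RNAs, on the log2 scale over all probe sets tested. The probe sets for the 3' end, the middle and the 5' end of Gapdh differed between tips and lung by 1.91, 0.70 and 0.63, and those of the beta-actin gene by 0.23, 1.08 and 0.19. Of 7 genes of myofibroblasts and smooth muscle, cells that make elastin, 4 rose and 1 fell, and their summed signal was 36266 to 47072 on tip arrays and 39789 to 75633 on lung arrays. Without Mylk, the gene that fell, the sum of the other 6 was 27987 to 43871 on tip arrays and 14987 to 39892 on lung arrays. Of 3 tested genes of vessel smooth muscle and pericytes 0 were called with limma, also at an unadjusted p under 0.05 except for Notch3. With Pdgfrb, which was not tested, the sum of the 4 on the array was 6095 to 8148 in tips and 2890 to 4931 in lung. Of 6 endothelial genes 3 rose (Pecam1 by 1.41, Tie1 by 1.94 and Icam2 by 1.64) and Tek fell, and their sum was 41625 to 69066 in tips and 28462 to 33380 in lung. Tie1, and Actg2 among the myofibroblast genes that rose, were read by probe sets with the letter f, whose probes related transcripts can share. Of 4 tested genes of large-vessel endothelium 2 fell (Vcam1 -2.38 and Efnb2 -1.74). Vwf (0.56) and Gja5 (1.10) leaned higher without being called, as did Bmx (0.73), which was not tested. The sum of the 5 on the array was 15527 to 19372 in tips and 27950 to 40352 in lung. Efnb2 alone had 4068 and 8399 in the tip RNAs against 25237 and 15373 in the lung RNAs. Of 6 genes of alveolar fibroblasts 2 fell (Meox2 -3.16 and Lpl -2.48), with a sum of 6219 to 17491 in tips and 32464 to 40708 in lung. The others were not called, with Pdgfra and Tcf21 at -0.83 and -0.12 and Plin2 and Fgfr4 at 0.29 and 0.66. Of 4 alveolar type II genes 2 rose, Sftpc by 1.95 and Muc1 by 0.95, with a sum of 104456 to 119616 in tips and 24626 to 41066 in lung. Of 3 tested type I genes Hopx fell (-1.76), while Cav1 leaned lower (-0.88) and Ager higher (0.89) without being called. The sum of the 4 on the array was 33929 to 45280 in tips and 70272 to 81953 in lung. In the lung RNAs Hopx and Cav1 were far brighter than Ager, so the sum says little about Ager. Of 3 airway genes 2 rose, with a sum of 32993 to 83794 in tips and 14524 to 24475 in lung. The sum of 3 mesothelial genes was 1519 to 4095 in tips and 1854 to 2291 in lung, and that of 3 cartilage genes, none bright enough to be tested, was 827 to 2258 in tips and 431 to 1069 in lung. No marker was at 0, and Matn1 of cartilage was under background on all arrays. The part of these in the results was not tested.

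**Figure D4:**
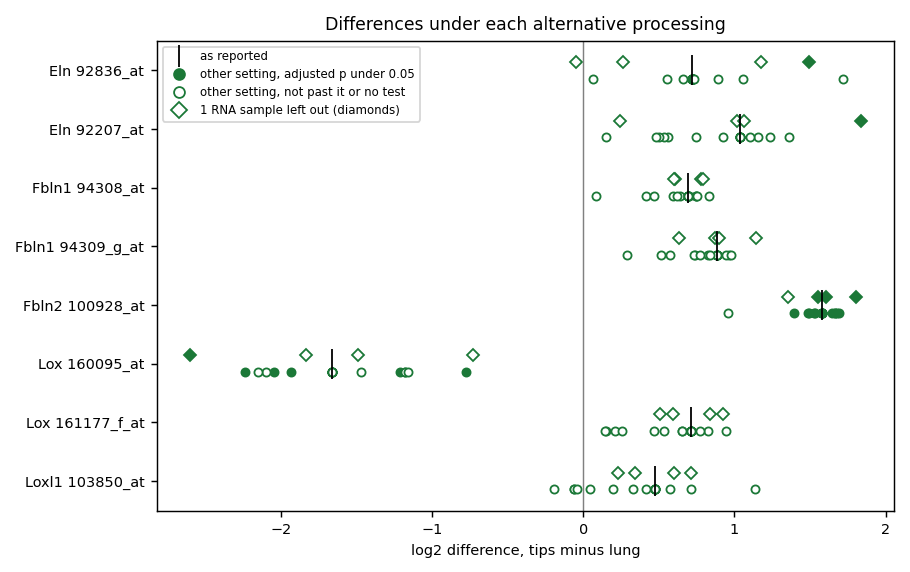
Log2 difference of tips minus lung for the 8 probe sets tested, as reported (line), under other settings (circles) and with 1 RNA sample left out (diamonds), filled where the adjusted p was under 0.05. Fbln2 stays between 0.96 and 1.81, Lox 160095_at between -2.60 and -0.73, and the bright Eln probe set between -0.05 and 1.72.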

How the data were processed

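The deposited intensities hold 1 linear signal for every probe set and array. MAS5, named without a version in the submitters' processing notes, is what the authors used to make them, and their trimmed means (2% left out at each end) show that the authors had already scaled all arrays alike. Detection calls were not used here. Groups were taken from the titles, because the tips carry a description as whole lung. In the labels' protocols an amplification step is given for all tip arrays but for only 1 lung array, while the design text says both tissues were amplified in parallel.

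Arrays were brought to a trimmed mean of 1501, 150.09 was added (10% of it), which understates differences of dim probe sets, and log2 was taken. Left out were the 66 control probe sets and those with a mean log2 value under the 40th percentile, leaving 7453. Arrays of an RNA were averaged, and tips were compared with lung by limma 3.58.1 in R 4.3.3 (lmFit, eBayes with an intensity trend), threshold adjusted p under 0.05, with 2 residual degrees of freedom and 7.05 from the prior. These p-values weigh a difference against the spread between RNA samples from different litters. More of that spread came from the prior, drawn from all probe sets, than from the probe set itself. The 2 RNA samples per group limit the precision. Background used 19 control probe sets. Symbols were updated by gene ID through the GRCm38.p6 RefSeq table. The array data name no build, so no coordinates are given except those of the Fbln2 promoter window, which are from RefSeq. The script was tested on simulated data.

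All probe sets of the members are given. From the pathway lists, up to 3 genes per direction with the smallest p are named, and Tgm2, Atp7a, the sum without Mylk and the named markers were added after their values were seen. Members and lists were chosen with earlier results of these data known. The experiment number pairs tips and lung per the design text, and over probe sets the tip deviations correlated with the lung deviations at 0.0452. In all 22 alternatives were run, 3 of them chosen after seeing the data.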

Additional observations from a re-analysis of the deposited data

How the results depend on the processing

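Of the 8 probe sets tested, 1 passed the threshold, and the same count of 1 was found with no rescaling, an offset of 16, no filter, the 60th percentile as filter, either array alone, or eBayes without a trend or robust, and also with centring on the median, where Lox 160095_at passed (adjusted p = 0.0149) in place of Fbln2. The count was 2 with quantile normalization, cyclic loess, an offset of 500, and with the experiment number as a replicate block (paired by experiment), in each case Fbln2 and Lox 160095_at, and the block changed no other call of these probe sets. It was 3 with the 8 arrays fitted and the RNA as a random block, and 4 of 6 with a common floor of 1244, where both bright Fbln1 probe sets passed as well. Of the settings chosen after seeing the data, a floor of 792 gave 2, and leaving out array 2 of the tip RNA of experiment 1, which has the highest background, or array 1 of that of experiment 2 gave 1 each. Without 1 RNA sample the count ranged from 0 to 3. Over all probe sets it then ranged from 349 to 3324, while the share called higher against lower moved to 252 against 1603 with centring on the median and to 608 against 1020 with quantile normalization, from 1084 against 1022.

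Fbln2 passed under 20 of 22 alternatives, between 0.96 and 1.81, and Lox 160095_at under 9 of 22, always lower in tips. Of the sign changes, Loxl1 gave -0.0602 with quantile normalization, -0.0605 with centring on the median, -0.0394 with cyclic loess and -0.193 on array 2 alone, and the untested Fbln1 94307_at gave -0.03 with cyclic loess and -0.47 on array 1 alone. The bright Eln probe set gave -0.0508 without the tip RNA of experiment 1 and up to 1.49 with another RNA left out, and 0.06 with centring on the median against 1.72 with cyclic loess. The cause was not tested. Dim signals limit Lox 160095_at in tips, Loxl1, Eln 92207_at and 2 Fbln1 probe sets, and 2 RNA samples per group limit all.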

Other observations

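Some genes of elastic fibres and of the cells around them were too dim for the test yet brighter in tips. Fbn2, a microfibril fibrillin, had signals of 1381 and 953 in the tip RNAs against 213 and 40.6 in the lung RNAs, and was above background on 2 of 4 tip arrays and on 0 of 4 lung arrays. Pdgfrb, the receptor of pericytes and vessel smooth muscle, had 641 and 668 in the tip RNAs against 58.8 and 130 in the lung RNAs, with the same counts above background. Tgfbr2, a TGF-beta receptor gene, had 511 and 536 in the tip RNAs against 93.6 and 126 in the lung RNAs, above background on 1 tip array. These genes were picked after their values were seen, tip arrays have the higher background, and no test was made.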
